A study of Homo sapiens with 6 samples.

Results

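The proteasome is the protease that breaks down proteins tagged with ubiquitin, and its subunits and dedicated assembly factors were followed here in an esophageal squamous cell carcinoma line and in a derivative of it in which NRF2 had been disrupted. The genes were taken by name, as every symbol made of PSM, a letter from A to G and a number. This gave 48 of the 58884 genes in the table, and no symbol occurred more than once. The rule uses no measured value, although it was set with earlier results of these data known. RNA sequencing covered KYSE70, an established human line from an esophageal squamous cell carcinoma that carries a mutant allele of NFE2L2, the gene for NRF2, and NRF2null-KYSE70, made from KYSE70 by CRISPR-Cas9 cutting of NFE2L2. Both lines were untreated and each had 3 libraries, called replicates in the labels. Per the paper, the edit did not abolish NRF2 fully, as a faint, smaller NRF2 band and some transcript variants of NFE2L2 remained. NRF2null-KYSE70 was expanded from 1 clone, so the groups differ by clone as well as by NFE2L2. The effect of the edit and that of the clone cannot be told apart. The labels do not say whether the replicates came from separate cultures, so the p-values measure only the spread between these libraries, which may be technical.

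Each library held between 52072801 and 63975313 reads assigned to genes. Values are normalized counts, that is, reads per gene divided by a size factor of the library, so that 1 read was worth between 0.889 and 1.14. The targeted gene, NFE2L2, fell from 9928 ± 102 to 6093 ± 319 normalized counts (SD, n = 3 each), which was 61.4% of the parental mean. Log2 fold changes compare NRF2null-KYSE70 with KYSE70 throughout, on a scale of log2(normalized count + 1), and that of NFE2L2 was -0.71 (SE 0.0495, adjusted p = 9.37e-08 by limma). All 9 squamous epithelial markers had a mean of at least 10, with sums between 330083 and 337532 in KYSE70 and between 256895 and 269362 in NRF2null-KYSE70. KRT5 had the largest fall in counts, with means of 209917 and 124640, while 6 of the 9 had a higher mean in NRF2null-KYSE70. The 5 leukocyte markers summed to at most 10.5 and to between 40.2 and 47.9 in the same order, all of the latter PTPRC but for single reads. The 3 endothelial markers summed to between 133 and 149 and to between 275 and 450, nearly all of it VWF. The 4 fibroblast markers summed to between 1172 and 1336 and to between 464 and 611, nearly all of it COL1A1, with COL1A2 and DCN at 0 throughout. The part of these marker changes in the results was not tested.

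The 26S proteasome is built from a barrel, the 20S core, and a cap on its end, the 19S particle. The core stacks rings of alpha subunits, which form the gate, around rings of beta subunits, some of which cut the substrate. The cap recognises ubiquitin, removes it and threads the unfolded substrate into the barrel with a ring of ATPases. In cells exposed to interferon, and in immune cells, the catalytic beta subunits are replaced by inducible ones, giving the immunoproteasome, whose products feed peptide presentation on MHC class I. NRF2 is both a substrate of the proteasome, through KEAP1-directed ubiquitination, and a transcription factor that binds antioxidant response elements. NRF1, encoded by NFE2L1, is a relative of NRF2 known for raising proteasome genes when proteasome activity falls short.

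Because NRF2 acts at antioxidant response elements, the promoter of each member was searched for the core letters TGACNNNGC on both strands over the 250 bases before the gene's start. The sequences came from RefSeq on GRCh38.p14, in which 42 of the 48 members were matched. The core occurred in 11 of the 42 (26.2%), compared with 11.03% of all 27305 promoters of the same length. In these members it overlapped no match of the other motifs searched, the CCAAT box and TTCNNNGAA. The windows below are shown because they hold the core in members called lower or higher and in a core subunit that was not called, and because they lie outside annotated exons. Each window carries 25 bases on either side of the core, which is in capitals, and reads 5′ to 3′ along the strand of the gene. In PSMB9 the core lies on the other strand, so its reverse complement is printed.
PSMB9 (chr6:32854019-32854077, + strand, core 148 bases before the start): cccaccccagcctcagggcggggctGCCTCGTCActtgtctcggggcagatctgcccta
PSMD3 (chr17:39980745-39980803, + strand, core 37 bases before the start): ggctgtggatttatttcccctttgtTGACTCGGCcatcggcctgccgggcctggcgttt
PSME1 (chr14:24136083-24136141, + strand, core 86 bases before the start): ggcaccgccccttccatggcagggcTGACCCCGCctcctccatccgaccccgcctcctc
PSMG1 (chr21:39183601-39183659, - strand, core 183 bases before the start): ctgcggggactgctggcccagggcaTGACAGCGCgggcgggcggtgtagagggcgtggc
PSMB3 (chr17:38752612-38752670, + strand, core 104 bases before the start): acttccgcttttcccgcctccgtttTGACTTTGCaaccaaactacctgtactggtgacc

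The core did not go with a single direction of change. Among the 11 members with it, 5 were lower in NRF2null-KYSE70, 2 were higher and 4 were not called, with a median log2 fold change of -0.20. Among the 29 tested members without it, 13 were lower, 2 were higher and 14 were not called, with a median of -0.13. Of the members printed, PSMB9, PSMD3 and PSME1 were lower, PSMG1 was higher and PSMB3 was not called. The CCAAT box was found in 42.9% of the members' promoters and 33.0% of all. TTCNNNGAA, the letters of the interferon gamma activated site, were found in 11.9% of the members' promoters and 6.78% of all. A match describes the letters only, and binding was not measured in these libraries.

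Most proteasome genes that differed between the lines were lower in NRF2null-KYSE70, but by small amounts. A gene was tested when its mean normalized count over the 6 libraries was at least 10, which held for 46 members. It was called lower or higher at an adjusted p under 0.05 over all 15994 genes tested with limma. Of the 46 members, 22 were lower (47.8%), 4 were higher (8.70%) and 20 were not called. Over all genes tested the shares were 28.3% lower and 29.3% higher, 57.6% in all, and over the 8107 genes with a mean of at least 1000 they were 30.5% and 38.0%. The median log2 fold change of the members was -0.14, beside -0.01 for all genes tested and 0.04 for those with a mean of at least 1000. Only PSMB8 and PSMB9 also changed by 1 or more on the log2 scale, both lower, whereas 7.43% of all genes did so downward and 7.23% upward, 14.7% in all. The 3 libraries of one line did not overlap those of the other in 26 members that were lower and 6 that were higher, compared with 31.3% and 32.1% of all genes, or 63.4% in either direction. PSMA8, an alpha subunit of the testis, and PSMB11, the beta subunit of the thymus cortex, had 0 reads in every library, which allows up to 3 reads in each.

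**Figure D1:**
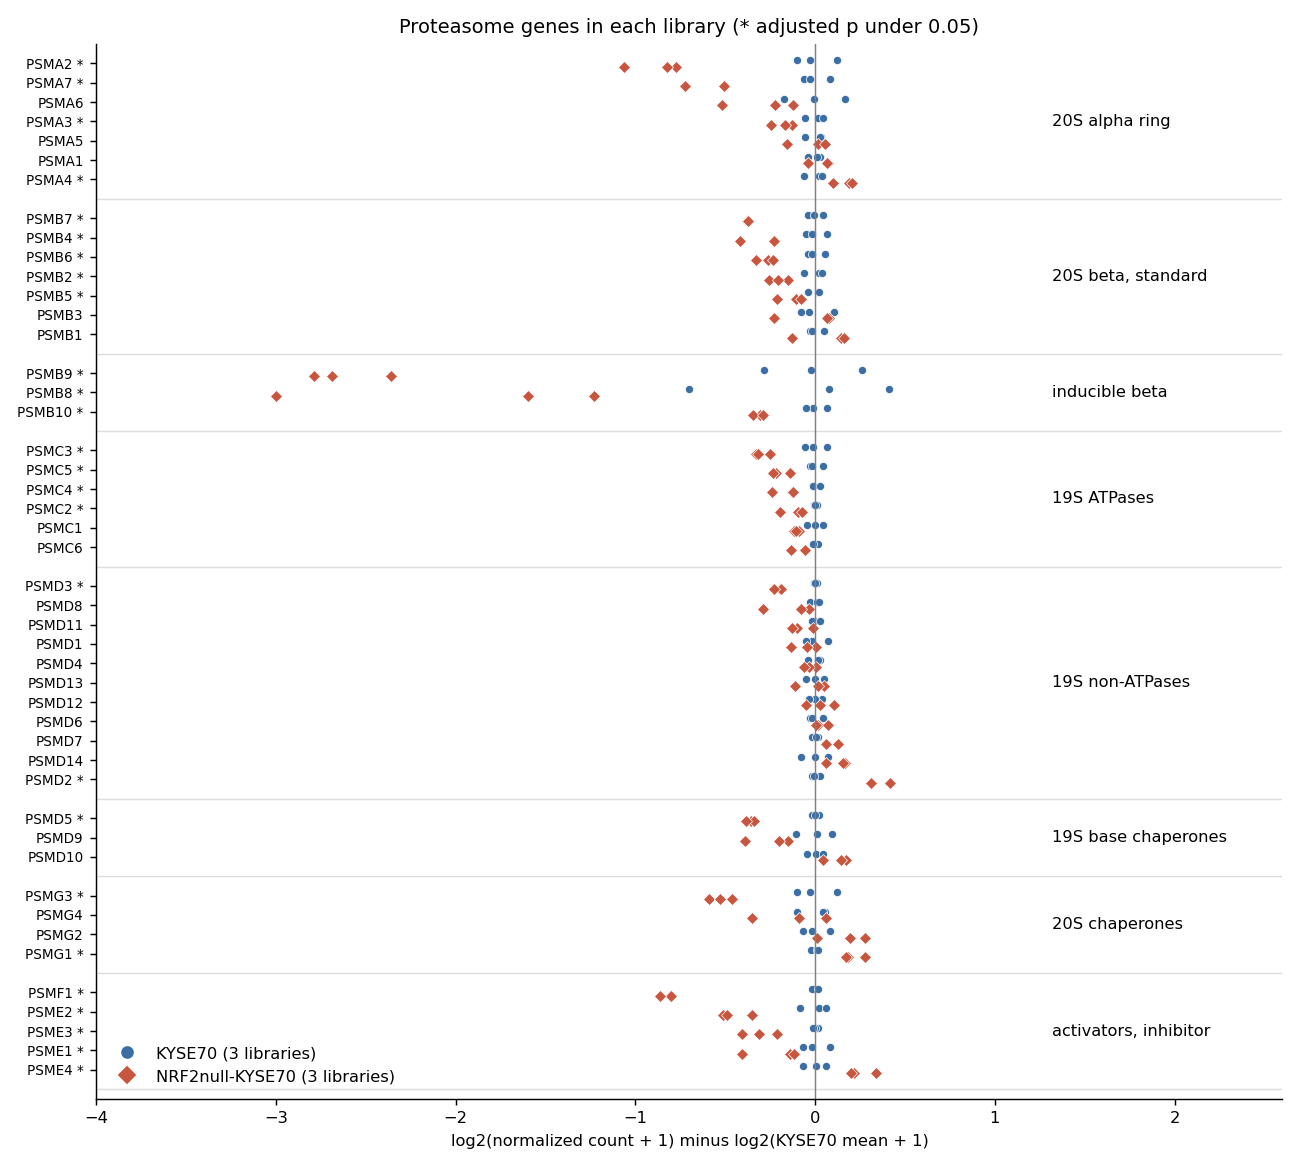
Level of each of the 46 tested members in every library, as log2(normalized count + 1) minus the log2 of the KYSE70 mean plus 1, grouped by role, with circles for KYSE70, diamonds for NRF2null-KYSE70 and an asterisk at an adjusted p under 0.05. The inducible subunits PSMB9 and PSMB8 stand far to the left. Among the other members PSMA2 (-0.89) and PSMF1 (-0.83) fell furthest while PSMD2 (0.35) rose furthest. All coding bases of PSMA2 are shared with another gene on the same strand.

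In the alpha ring, whose subunits form the gate of the core, 3 of the 7 tested members were lower (PSMA2, PSMA3 and PSMA7), 1 was higher (PSMA4) and 3 were not called, with a median log2 fold change of -0.18. PSMA2 (chromosome 7, 42916828 to 42932185) had 567, 485 and 510 normalized counts in KYSE70 and 248, 304 and 293 in NRF2null-KYSE70. The groups stood well apart, and PSMA2 fell by 0.89 on the log2 scale (SE 0.119, adjusted p = 3.63e-05 by limma). All of its coding bases (100%) also belong to another gene on the same strand. The part of this sharing in the fall was not tested. PSMA7 (chromosome 20, 62136733 to 62143440) had 13383, 13694 and 14796 counts in KYSE70 and 8445, 9831 and 9813 in NRF2null-KYSE70. Every parental library was again above every NRF2null-KYSE70 library, and the log2 fold change was -0.58 (SE 0.0636, adjusted p = 6.1e-06). The median over the genes of its chromosome arm, 20q, was -0.24 and that over its nearest neighbours, up to 20 genes on each side with a mean of at least 50, was -0.19.

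PSMA4 (chromosome 15, 78540405 to 78552417) was the alpha subunit called higher. Its counts were 20774, 21991 and 22190 in KYSE70 and 23207, 24685 and 24976 in NRF2null-KYSE70. The groups did not overlap but were close, with a log2 fold change of 0.17 (SE 0.048, adjusted p = 0.0101). The median of its arm, 15q, was 0.33, and after that median was subtracted the sign turned, to -0.16 (adjusted p = 0.012). The call was also lost under quantile normalization (0.00, adjusted p = 0.959), total scaling (0.09, adjusted p = 0.138), limma without the trend (adjusted p = 0.0538) and without the first KYSE70 library in the table (0.14, adjusted p = 0.055). PSMA3 fell by 0.18 (adjusted p = 0.00674), and the log2 fold changes of PSMA1, PSMA5 and PSMA6 were 0.03, -0.03 and -0.28, with adjusted p-values of 0.675, 0.702 and 0.117.

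In 5 members, many exon bases belong to another gene as well. In GENCODE v44, PSMA1, PSMA2, PSMA6, PSMB10 and PSMD9 share 91.0%, 100%, 89.7%, 60.0% and 68.3% of their coding bases with another protein-coding gene on the same strand, a read-through or overlapping model. These 5 had KYSE70 means between 301 and 1957 normalized counts, the lowest being the inducible PSMB10. The 39 other tested members outside the inducible beta subunits ranged from 674 to 62676. The inducible PSMB9 and PSMB8, which share no coding bases, were also low, at 392 and 22.7. The overlapping models themselves had KYSE70 means of at most 19.9 counts. How reads in more than 1 gene were counted was not given in the sources used here. Its part in the low values of these 5 genes and in their fold changes was not tested. Without these 5 genes, 20 of 41 members were lower, 4 were higher and the median was -0.13. On the opposite strand, NRDE2 covers 83.2% of the exon bases of PSMC1 and FTSJ3 covers 13.7% of those of PSMC5, and a non-coding gene covers 51.6% of those of PSMD7. If strand was not used in the counting, reads of such pairs cannot be told apart.

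**Figure D2:**
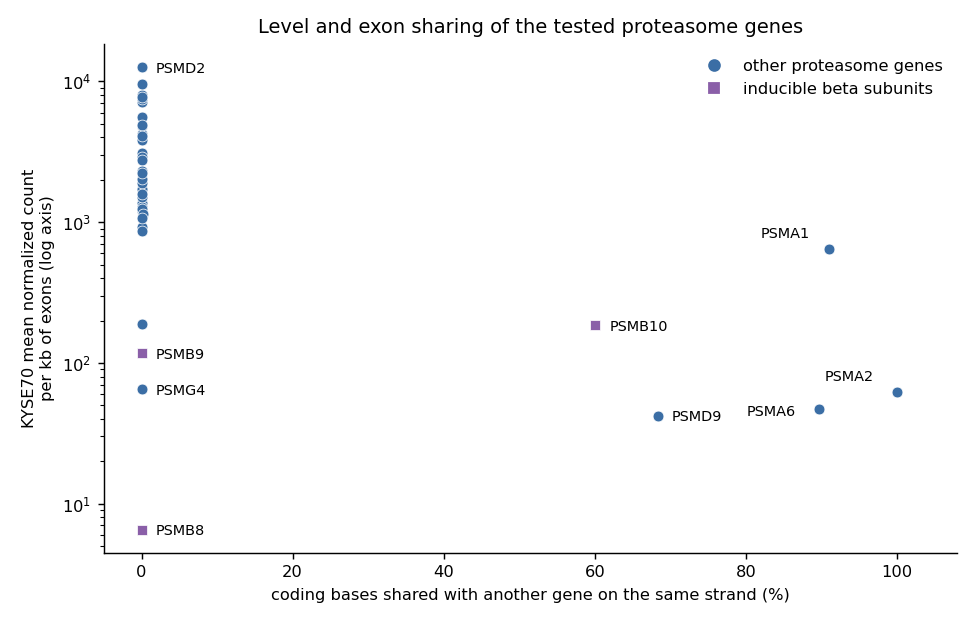
KYSE70 mean normalized count per kb of exons (log axis) against the percent of coding bases that each of the 46 tested members shares with another gene on the same strand, with squares for the inducible beta subunits. PSMA2, PSMA6 and PSMD9, which share most of their coding bases, sit near the bottom at 62.2, 47.4 and 42.1, whereas PSMD2 stands at the top with 12636. PSMG4, which shares no coding bases, is also low at 64.7, while PSMA1, which shares 91.0%, stands at 642.

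Of the standard beta subunits, which include the catalytic ones, 5 of 7 were called lower, with none higher and a median log2 fold change of -0.20. The share was close to that of the ATPases of the cap, of which 4 of 6 were called lower. PSMB6, which cuts after acidic residues, had 7828, 7956 and 8347 normalized counts in KYSE70 and 6399, 6698 and 6837 in NRF2null-KYSE70. PSMB7, which cuts after basic residues, had 13133, 13446 and 13904 and then 10356, 10431 and 10412. PSMB5, which cuts after hydrophobic residues and is the main target of the drug bortezomib, had 6328, 6080 and 6338 and then 5799, 5907 and 5385. In each of the 3 genes every parental library was above every NRF2null-KYSE70 library, although PSMB5 was separated only narrowly. Their log2 fold changes were -0.28 for PSMB6 (SE 0.0484, adjusted p = 0.000326 by limma), -0.38 for PSMB7 (SE 0.0435, adjusted p = 9.59e-06) and -0.13 for PSMB5 (SE 0.0509, adjusted p = 0.0384).

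Of the structural beta subunits, PSMB4 had 14628, 15003 and 15895 counts in KYSE70 and 11356, 12955 and 12958 in NRF2null-KYSE70. The groups were separate, and it fell by 0.29 on the log2 scale (SE 0.0583, adjusted p = 0.000894 by limma). PSMB2 fell by 0.20 (adjusted p = 0.00318). PSMB1 and PSMB3 were not called, with log2 fold changes of 0.06 and -0.03 (adjusted p = 0.481 and 0.783). The call of PSMB5 was the least secure of the ring. It was lost without filtering, without the trend and on leaving out any KYSE70 library or the third NRF2null-KYSE70 library. The adjusted p-values in these fits lay between 0.0566 and 0.169. The neighbours of PSMB5 had a median of -0.12, while its arm, 14q, had a median of 0.06.

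The inducible beta subunits held the largest changes among the proteasome genes, and all 3 that were detected were lower. PSMB9, which takes the place of PSMB6 and is also called LMP2, lies on chromosome 6 from 32844136 to 32859851 within the MHC region. It had 321, 385 and 469 normalized counts in KYSE70 and 55.8, 59.8 and 75.3 in NRF2null-KYSE70. The lowest parental library was thus several times above the highest NRF2null-KYSE70 library, and the mean was 16.3% of the parental mean. The log2 fold change was -2.60 (SE 0.19, adjusted p = 1.36e-07 by limma), and it lay between -2.73 and -2.46 in all 18 alternatives.

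PSMB8 (chromosome 6, 32840717 to 32844679), which takes the place of PSMB5 and is also called LMP7, was close to the limit of detection. Its 27, 15 and 29 reads in KYSE70 compared with 9, 2 and 6 reads in NRF2null-KYSE70. The groups did not overlap, but the counts were too few for a firm size, with a log2 fold change of -1.87 (SE 0.607, adjusted p = 0.0185 by limma). The call was lost without the first KYSE70 library (adjusted p = 0.0587), the third (0.0782) or the second NRF2null-KYSE70 library (0.0578), and the log2 fold change without the last was -1.34. PSMB10 (chromosome 16, 67934506 to 67936864), which takes the place of PSMB7, had 298, 315 and 290 normalized counts and then 243, 236 and 245. Its groups were close but separate, and it fell by 0.31 on the log2 scale (SE 0.12, adjusted p = 0.0396). That call was lost on leaving out any 1 library (adjusted p from 0.0602 to 0.113), without filtering (0.0626) and under quantile normalization (0.104).

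Each inducible subunit can be read against the standard subunit whose place it takes, within a library. The values are percents of normalized counts, with each gene first divided by the length of its exons. PSMB9 per PSMB6 was 1.78%, 2.10% and 2.44% in KYSE70 and 0.378%, 0.387% and 0.478% in NRF2null-KYSE70, so this ratio was lower in every NRF2null-KYSE70 library. PSMB10 per PSMB7 was 2.49%, 2.57% and 2.29% and then 2.58%, 2.49% and 2.59%, with overlapping groups. PSMB8 per PSMB5 was 0.169%, 0.0996% and 0.215% and then 0.0701%, 0.0148% and 0.0566%. Divided by the length of the exons of each gene, the inducible subunits together made up 1.77% ± 0.0848 of the 6 catalytic subunits in the parental line and 1.19% ± 0.0511 in NRF2null-KYSE70 (SD, 3 libraries each). The difference of -0.58 percentage points had p = 0.1 in a two-sided exact permutation test, the smallest value that 3 libraries against 3 allow. With coding lengths the difference was -1.36 points, and without a correction for length it was -1.16 points. In bulk RNA, fewer cells that transcribe a gene and less RNA per cell cannot be told apart.

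**Figure D3:**
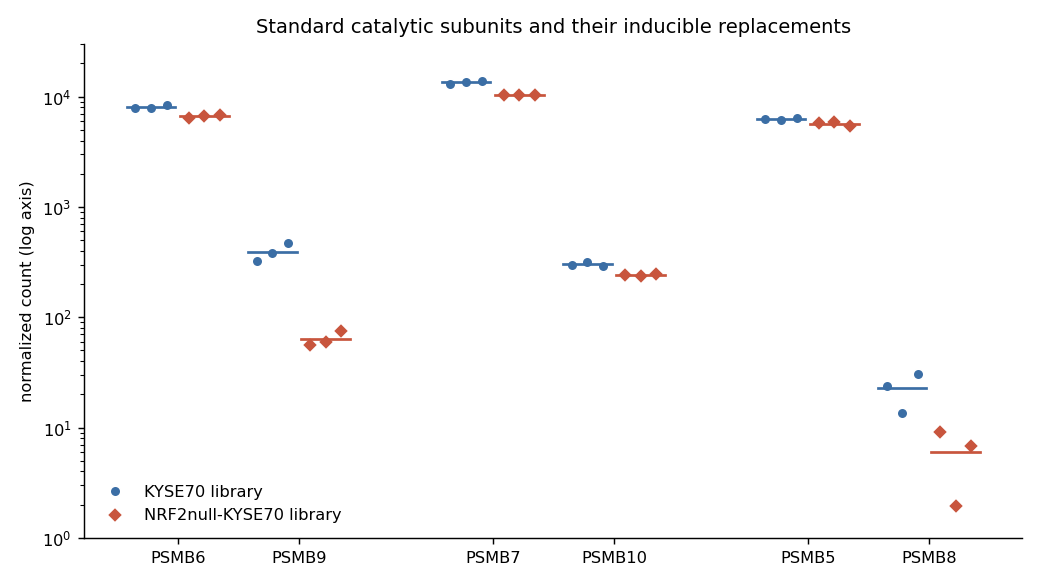
Normalized count (log axis) of the standard catalytic subunits PSMB6, PSMB7 and PSMB5, each beside its inducible replacement PSMB9, PSMB10 or PSMB8, with circles for KYSE70 libraries, diamonds for NRF2null-KYSE70 libraries and horizontal lines at the group means. PSMB9 falls from a mean of 392 to 63.6, whereas PSMB10 and the 3 standard subunits move little on this scale.

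PSMB9 and PSMB8 lie beside TAP1 and TAP2, which encode the transporter that carries peptides to MHC class I. TAP1 and TAP2 are not proteasome genes and were chosen after their values were seen. In the RefSeq annotation the starts of PSMB9 and TAP1 point away from each other with 487 bases between them, whereas the longer span of PSMB9 given above begins further upstream and runs across TAP1 on the opposite strand. TAP1 had 1460, 1482 and 1542 normalized counts in KYSE70 and 798, 795 and 819 in NRF2null-KYSE70. TAP2 had 291, 288 and 286 and then 201, 149 and 100. Both fell without overlap, TAP1 with a log2 fold change of -0.89 (limma adjusted p = 2.11e-07) and TAP2 with -0.99 (adjusted p = 0.00137). The median over 40 neighbouring genes of PSMB9 was -0.08, with 65.0% of them negative.

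In the 19S cap, the ATPases that unfold the substrate moved one way. All 6 had a negative log2 fold change and 4 were called lower (PSMC2, PSMC3, PSMC4 and PSMC5), with a median of -0.14. PSMC3 had 16994, 17474 and 18472 normalized counts in KYSE70 and 14056, 14820 and 14167 in NRF2null-KYSE70. PSMC5 had 6991, 6646 and 6695 and then 6159, 5819 and 5749. In both genes the groups were separate, with log2 fold changes of -0.30 for PSMC3 (SE 0.0475, adjusted p = 0.000148 by limma) and -0.20 for PSMC5 (SE 0.0487, adjusted p = 0.0037). The log2 fold changes of the other ATPases were -0.16 for PSMC4 (adjusted p = 0.012), -0.12 for PSMC2 (0.0412), -0.10 for PSMC1 (0.0559) and -0.08 for PSMC6 (0.134). In all 6 of these genes the 3 parental libraries lay above the 3 NRF2null-KYSE70 libraries. The call of PSMC2 was lost in edgeR (adjusted p = 0.0519), without filtering, without the trend and on leaving out any library but the third of NRF2null-KYSE70. That of PSMC4 was lost without the third KYSE70 library (adjusted p = 0.0511).

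The non-ATPase subunits of the cap differed little: 9 of the 11 were not called, and the median log2 fold change was -0.02. The exception upward was PSMD2 (chromosome 3, 184299198 to 184309050), the scaffold of the base on which ubiquitin shuttles and USP14 dock. It had 63797, 61886 and 62344 normalized counts in KYSE70 and 83716, 77615 and 77634 in NRF2null-KYSE70. The lines were clearly separate, and PSMD2 rose by 0.35 (SE 0.0487, adjusted p = 5.38e-05 by limma). The median of its arm, 3q, was 0.28, and after this was subtracted PSMD2 stood at 0.06 (adjusted p = 0.299). Its 40 nearest neighbours had a median of 0.18. The exception downward was PSMD3, a lid subunit, with 11233, 11345 and 11263 counts in KYSE70 and 9859, 9902 and 9629 in NRF2null-KYSE70. Its libraries within a line were tightly grouped, and it fell by 0.20 (SE 0.0422, adjusted p = 0.00115).

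Of the 9 that were not called, PSMD14, the deubiquitinase that removes ubiquitin chains from the substrate, had a log2 fold change of 0.13 (limma adjusted p = 0.0534). PSMD4, a ubiquitin receptor, was at -0.03 (adjusted p = 0.565), and PSMD1, the other large scaffold of the base, was at -0.06 (0.363). The lid subunit PSMD7 was at 0.11 (0.053), PSMD8 at -0.14 (0.0799), PSMD11 at -0.08 (0.155), PSMD12 at 0.03 (0.678) and PSMD13 at -0.02 (0.828). PSMD6 stood at 0.03 (0.591) although the median of its arm, 3p, was -0.48, so that subtracting the arm median put it at 0.51 (adjusted p = 8.73e-07). Its 40 nearest neighbours had a median of -0.11, which left a difference of 0.14.

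The subunits were also summed within the core and within the cap. The 14 constitutive core subunits summed to 129448, 132570 and 138171 normalized counts in KYSE70 and to 113132, 125060 and 124522 in NRF2null-KYSE70, so the sums were lower in NRF2null-KYSE70 without overlap. The 17 cap subunits summed to 247518, 246733 and 249437 and then to 258013, 256304 and 252373, higher without overlap, and PSMD2 is the most abundant of them. Without PSMD2, an alternative chosen after seeing the data, the cap summed to 183721, 184846 and 187093 in KYSE70 and to 174297, 178688 and 174739 in NRF2null-KYSE70, lower without overlap. As a share of reads assigned to genes, the core took between 0.228% and 0.243% in KYSE70 and between 0.188% and 0.210% in NRF2null-KYSE70. The cap took between 0.435% and 0.439% and then between 0.425% and 0.429%, so the direction of its sum depended on the scaling. By gene, 8 of 14 core subunits and 5 of 17 cap subunits were called lower and 1 of each was called higher, with medians of -0.19 and -0.08. The difference between these medians was not tested.

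Subunits that enter the same complex did not have equal transcript levels. Per kb of exons, and leaving out PSMA1, PSMA2 and PSMA6, the constitutive subunits ranged in KYSE70 from 918 normalized counts for PSMD1 to 12636 for PSMD2, a ratio of 13.8. After PSMD2 came PSMB3 at 9644, PSMA7 at 7967 and PSMC3 at 7753 per kb. The length used is that of all annotated exons together, and the order and the ratio rest on this choice. It was 4960 bases for PSMD2, of which 2724 are coding, but 6994 for PSMA4, of which 783 are coding. Between libraries of a line, the median coefficient of variation of these constitutive subunits was 2.87% in KYSE70 and 4.16% in NRF2null-KYSE70. The same median over genes with a mean of at least 1000 was 3.96% and 5.19%. That set was not matched to the subunits in level, and counting error shrinks as the level rises.

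Factors that assemble the complex showed calls in both directions. Of the 3 chaperones of the base, PSMD5 was lower, with 6597, 6768 and 6668 normalized counts in KYSE70 and 5216, 5269 and 5104 in NRF2null-KYSE70. The lines were far apart relative to their spread, with a log2 fold change of -0.36 (SE 0.045, adjusted p = 1.81e-05 by limma), close to the median of -0.33 over 40 neighbouring genes on 9q. PSMD10, also called gankyrin, and PSMD9 were not called, at 0.12 and -0.25 (adjusted p = 0.0538 and 0.0946).

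The 4 chaperones of the core work as the pairs PSMG1 with PSMG2 and PSMG3 with PSMG4, and 1 member of each pair was called, in opposite directions. PSMG3 had 2907, 3057 and 3403 normalized counts in KYSE70 and 2071, 2268 and 2161 in NRF2null-KYSE70. Without overlap between the lines, it fell by 0.52 on the log2 scale (SE 0.0674, adjusted p = 2.39e-05 by limma), while its arm, 7p, had a median of 0.06. PSMG1 had 4255, 4359 and 4380 counts and then 4920, 5254 and 4880. It rose without overlap, with a log2 fold change of 0.21 (SE 0.0499, adjusted p = 0.00282), but its arm, 21q, had a median of 0.27, and after centring the sign turned, to -0.05 (adjusted p = 0.381). The median over the neighbours of PSMG1 was 0.40. The partners PSMG2 and PSMG4 were at 0.16 and -0.13 (adjusted p = 0.0783 and 0.356).

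The activators, which open the core without the cap, and the inhibitor PSMF1 were all called: 4 were lower and 1 was higher, with a median log2 fold change of -0.31. PSMF1, also called PI31 (chromosome 20, 1113240 to 1189415), had 11058, 10889 and 11140 normalized counts in KYSE70 and 6292, 6319 and 6050 in NRF2null-KYSE70. It fell without overlap, to 56.4% of the parental mean, with a log2 fold change of -0.83 (SE 0.0442, adjusted p = 7.96e-09 by limma). Its 31 neighbouring genes had a median of -1.02, with 96.8% of them negative, and the median of its arm, 20p, was -0.77. After that median was subtracted, PSMF1 stood at -0.06 (adjusted p = 0.298).

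PSME1 and PSME2 form the interferon-inducible activator PA28 and lie side by side on chromosome 14. PSME2 had 3858, 4161 and 4262 normalized counts in KYSE70 and 2863, 3205 and 2917 in NRF2null-KYSE70. The lines did not overlap, and it fell by 0.45 on the log2 scale (SE 0.0611, adjusted p = 3.72e-05 by limma). PSME1 fell by 0.22 (SE 0.0736, adjusted p = 0.0216), a call that was lost without the trend (adjusted p = 0.118), without the second KYSE70 library (0.0609) or without the third (0.0956). The neighbours of PSME1 and PSME2 had medians of -0.18 and -0.22, while their arm, 14q, had a median of 0.06. PSME3, the nuclear activator, fell by 0.31 (SE 0.0527, adjusted p = 0.000247). PSME4, also called PA200, a nuclear activator known for acting on acetylated histones, had 9341, 9007 and 8556 counts in KYSE70 and 11328, 10417 and 10313 in NRF2null-KYSE70. It rose without overlap, by 0.25 (SE 0.0527, adjusted p = 0.0012), and its arm, 2p, had a median of 0.07.

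Arm medians of the log2 fold change ran from -0.77 on 20p to 0.33 on 15q, so each member was set beside its neighbours, counted as for PSMA7. The 46 members lie on 17 chromosomes. The median of their neighbours' medians was -0.0028. Of the members, 35 had a lower log2 fold change than their neighbours while 11 had a higher one, with a median difference of -0.17. The same comparison was not made over all genes tested. After arm medians were subtracted, 24 members were lower and 4 were higher, with a median of -0.16. The members called were not the same, however. The 4 higher were then PSMD6, PSMD7, PSMD10 and PSME4, and of these only PSME4 was higher before. Those lower then took in PSMA4, PSMC1 and PSMC6 but not PSMF1. The shares of all genes called after the subtraction are not given here. PSMA2, PSMG3, PSMB8 and PSMB9 fell in surroundings with medians between -0.10 and -0.0011, whereas the neighbours of PSMF1, PSMD5 and PSMB4 had medians of -1.02, -0.33 and -0.25. After arm medians were subtracted, PSMD5 at -0.22 (adjusted p = 0.00117 by limma) and PSMB4 at -0.25 (0.0029) were still called, and PSMF1 at -0.06 (0.298) was not.

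**Figure D4:**
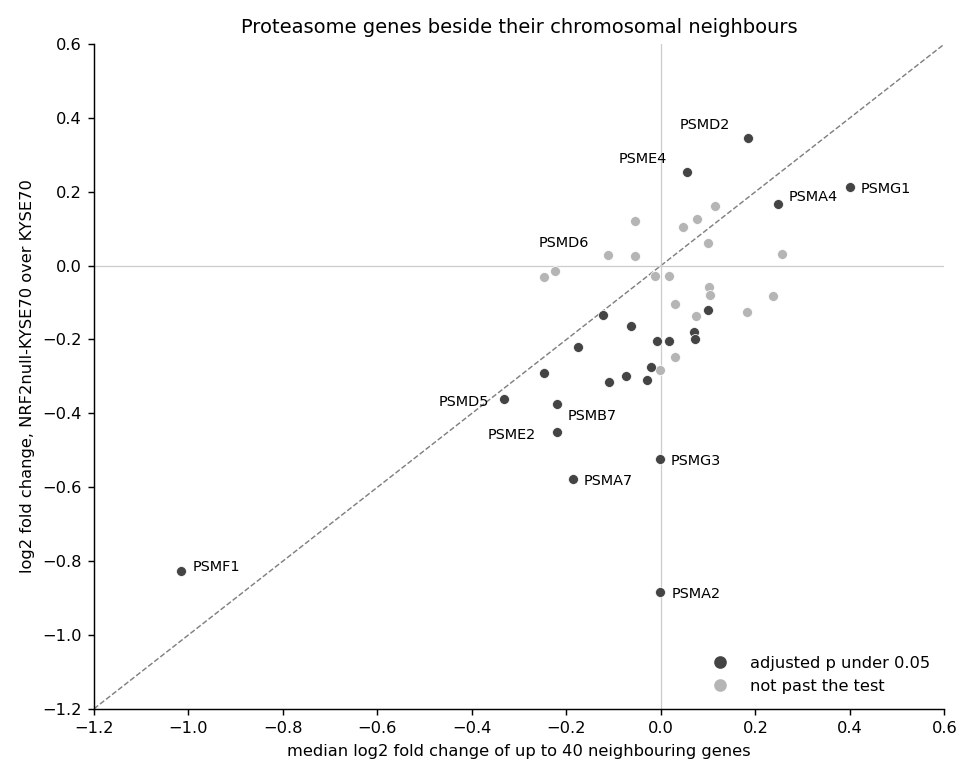
Log2 fold change of each proteasome gene against the median log2 fold change of its neighbouring genes, with dark points at an adjusted p under 0.05 and a dashed line where the values are equal; PSMB8 (-1.87) and PSMB9 (-2.60) lie below the plotted range. Most points lie under the dashed line, and PSMF1 lies far to the left near it, at -0.83 beside a neighbour median of -1.02.

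Genes that work with the proteasome but do not carry a PSM symbol were called in both directions. Of 30 such genes, listed from general knowledge, 10 were lower, 8 were higher and 12 were not called, with a median log2 fold change of -0.02. These shares, 33.3% lower and 26.7% higher, were near the 28.3% and 29.3% of all genes tested. The subunits and assembly factors among them had small fold changes. POMP, the maturation factor of the core, had 5585, 6028 and 6325 normalized counts in KYSE70 and 5697, 6130 and 6229 in NRF2null-KYSE70, with a log2 fold change of 0.01 (limma adjusted p = 0.895). SEM1, the smallest lid subunit, had 6947, 7114 and 7755 counts and then 7697, 7910 and 8178, with a log2 fold change of 0.13 (adjusted p = 0.0577). The groups overlapped in both genes. ADRM1, a ubiquitin receptor of the cap, had 7222, 6958 and 7406 counts in KYSE70 and 6367, 6258 and 6310 in NRF2null-KYSE70. It fell without overlap, by 0.19 (SE 0.0459, adjusted p = 0.00347), but stood at 0.05 (adjusted p = 0.338) once the median of 20q was subtracted.

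NFE2L1 was the furthest riser of the 30. It had 16542, 15412 and 14638 normalized counts in KYSE70 and 28557, 24067 and 24958 in NRF2null-KYSE70, with no overlap. Its log2 fold change was 0.73 (SE 0.0659, adjusted p = 9.54e-07 by limma), and it lay between 0.59 and 0.78 in all 18 alternatives. NGLY1, the glycanase that NRF1 needs for its activity, had 3003, 3219 and 3181 counts and then 2017, 2187 and 2202. It fell by 0.55 (SE 0.0589, adjusted p = 4.47e-06), and at -0.07 (adjusted p = 0.298) after the median of 3p was subtracted it was no longer called. DDI2, the protease that cuts NRF1, was at 0.01 (adjusted p = 0.926).

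Of the factors bound to the cap, USP14, a deubiquitinase, had 8590, 8346 and 7753 normalized counts in KYSE70 and 12522, 12194 and 11666 in NRF2null-KYSE70. It rose without overlap, by 0.56 (SE 0.0516, adjusted p = 1.2e-06 by limma). The median of its arm, 18p, was 0.14 and that over its 20 neighbours was 0.42. TXNL1, a thioredoxin-like protein of the cap, had 6270, 6858 and 7180 counts and then 3061, 3450 and 3333. It fell to 48.5% of the parental mean, with a log2 fold change of -1.04 (SE 0.0632, adjusted p = 2.43e-08) beside a median of -0.53 over its neighbours on 18q. The median of the whole arm was 0.03, and TXNL1 stood at -1.07 (adjusted p = 2.54e-08) once that was subtracted. NSFL1C, also called p47, a cofactor of the VCP segregase, had 9109, 9285 and 9610 counts and then 4589, 4427 and 4388. It fell by 1.06 (SE 0.0467, adjusted p = 1.34e-09) while the median of its arm, 20p, was -0.77, and after that was subtracted it fell by 0.29 (adjusted p = 0.000148). Of its 34 neighbours 97.1% were negative, and NSFL1C differed from their median by -0.06. VCP itself, which extracts ubiquitinated proteins from complexes and membranes, was at -0.03 (adjusted p = 0.669).

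**Figure D5:**
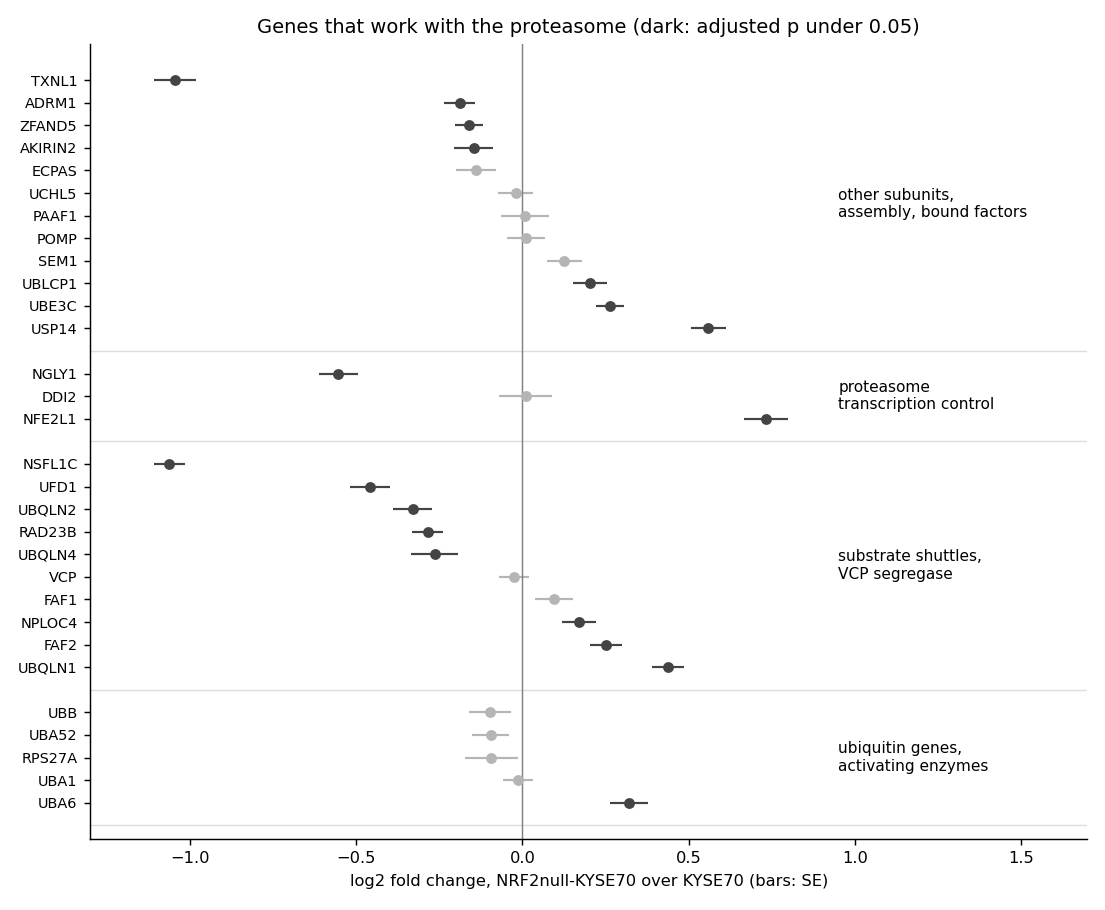
Log2 fold change, NRF2null-KYSE70 over KYSE70, of 30 genes that work with the proteasome, grouped by role, with bars of 1 standard error and dark points at an adjusted p under 0.05. NSFL1C (-1.06) and TXNL1 (-1.04) lie furthest to the left, NFE2L1 (0.73) and USP14 (0.56) furthest to the right.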

How the data were processed

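RNA from 6 libraries of untreated cells was sequenced by the authors. Per the labels, reads were checked with FastQC 0.11.5, trimmed with cutadapt 1.12, aligned with STAR 2.6.90c and counted per gene with featureCounts 1.5.1, and the builds named were hg38 and mm10; the human one was taken to apply. The deposited values are a signal, gene counts divided by a size factor per library, as DESeq2 gives. Whether strand was used was not given in the sources used here.

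Whole reads were recovered from the steps of the deposited values: 100% of values were whole within 0.1 of a read in every library, which gave the totals and the input of the count-based alternatives. The column names give the line but not the replicate, and libraries carry numbers by their place in the table. No column was left out. Log2(normalized count + 1) was tested with limma 3.58.1 (lmFit, then eBayes with trend, R 4.3.3), two-sided, with the line as the only term and Benjamini-Hochberg adjustment over the 15994 genes with a mean of at least 10. Read counting limits precision most for PSMB8, and statements on 0 reads cover counting error only. The method was tested on simulated data.

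The fit was repeated with a pseudocount of 0.1 or 5, without the filter or with it raised to 50, after quantile normalization, total scaling or TMM, with eBayes robust or untrended, with DESeq2 1.42.0 and edgeR 4.0.16 on the recovered reads, and after subtraction of chromosome-arm medians (from protein-coding genes whose mean reached 50, on arms holding 20 or more of them) and without each library in turn. Leaving out the 5 genes that share exons was added after seeing the data. Positions came from GENCODE 44 on hg38, in which arms were set by centromere position, and promoter sequences from RefSeq on GRCh38.p14.

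The members and lists were chosen with earlier results of these data known. Named with the value in every library were members past the threshold, the 2 largest rises and 2 largest falls among the called members of each list, the inducible subunits and the subunits they replace; of the related genes, POMP, ADRM1, SEM1, NFE2L1 and those called whose log2 fold change reached 0.5 in size. A few genes of the lists are not reported here. Other members are given by their log2 fold changes.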

Additional observations from a re-analysis of the deposited data

How the results depend on the processing

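No paired analysis was possible because the columns of the table carry no replicate numbers. The 76 tested genes named or listed were refitted under 18 alternatives, which gave 1367 values, of which 1230 kept their direction and their side of the threshold; 30 genes did so under every alternative run for them. Members called lower numbered 22, between 16 and 22 with a library left out, 27 under quantile normalization, 29 under total scaling and 24 after arm-centring. Members called higher numbered 4, but 7 with the filter at a mean of 50 and between 3 and 9 with a library left out, the 9 without the first NRF2null-KYSE70 library. Members past the threshold numbered 2, but 1 with the filter at 50, which drops PSMB8, and 1 to 2 with a library left out. The filter at 50 leaves fewer genes to test and put 1511 genes past the threshold in place of 2344 (2228 to 2346 with a library left out). Related genes called lower numbered 10 (9 to 10 with a library left out) and higher 8 (7 to 9); quantile normalization and total scaling each gave 13 and 7, and arm-centring gave 8 and 6. The difference in the inducible share lay between -0.63 and -0.55 points with a library left out. Total scaling moved the median of all genes by -0.08. Where not said otherwise, the cause was not tested.

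The sign turned in 44 values, 3 of them of called genes, all after arm-centring: PSMA4 (-0.16), PSMG1 (-0.0549) and ADRM1 (0.054). Arm-centring also turned PSMB1 (-0.0899), PSMD4 (0.009), PSMD12 (-0.0036), PSMD9 (0.13), SEM1 (-0.0406), POMP (-0.12), UCHL5 (0.021), ECPAS (0.0038) and DDI2 (-0.0186). Total scaling turned PSMA1 (-0.0435), PSMB1 (-0.0156), PSMD6 (-0.0458), PSMD12 (-0.0481), POMP (-0.0653), PAAF1 (-0.0677) and DDI2 (-0.0655). Quantile normalization turned PSMB1 (-0.0516), PSMD6 (-0.11), PSMD7 (-0.0172), PSMD12 (-0.0498), POMP (-0.0562), PAAF1 (-0.024) and DDI2 (-0.0398). With a library left out, the log2 fold change crossed 0 for PSMA5 (-0.0696 to 0.0348), PSMB3 (-0.0791 to 0.0718), PSMD12 (-0.0128 to 0.0664), PSMD13 (-0.0482 to 0.0335), POMP (-0.0381 to 0.0516), PAAF1 (-0.0516 to 0.0678), UCHL5 (-0.0524 to 0.0158), DDI2 (-0.0935 to 0.068), RPS27A (-0.15 to 0.0102) and UBA1 (-0.0369 to 0.0134), none of them called.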

Other observations

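Other genes of the ubiquitin pathway gave values in both directions. UBB, a polyubiquitin gene, was at -0.10 on the log2 scale (limma adjusted p = 0.2). UBA6, a ubiquitin-activating enzyme, rose by 0.32 (adjusted p = 0.000397), and UBA1, the main one, was at -0.01 (adjusted p = 0.822). Of the substrate shuttles, UBQLN1 rose by 0.44 (adjusted p = 5.77e-06), while UBQLN2 fell by 0.33 (0.000384) and UBQLN4 fell by 0.26 (0.00604). RAD23B, another shuttle, fell by 0.28 (adjusted p = 0.000164). UFD1 and NPLOC4, which form a cofactor of VCP as a pair, were called in opposite directions, at -0.46 (adjusted p = 3.21e-05) and 0.17 (0.0129). The call of NPLOC4 was lost under quantile normalization (adjusted p = 0.125), total scaling (0.124), without the trend (0.0565) and without the second KYSE70 library (0.0685). That of UBQLN4 was lost without the trend (adjusted p = 0.0561).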
